A study of Mus musculus with 8 samples.

Results

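Interferon-stimulated genes were followed across wild-type (WT) and cancer cells of mouse small intestine organoids that were grown apart or mixed. The genes were chosen by symbol alone, as every row of the read count table whose name belongs to the Ifi, Ifit, Ifitm, Isg, Oas, Gbp, Irf, Irgm or Mx names or is a single named gene such as Rtp4, Xaf1 or Bst2. The rule found 62 of the 13420 mouse genes in the table. Of these, 27 had enough reads to be tested among 5264 genes, and 35 did not pass the low-count filter. Of the 62, 4 match the rule by their symbol only, namely Irf2bp1, Irf2bp2 and Irf2bpl, which are named after a corepressor that binds IRF2, and Isg20l2, a nuclease of ribosome assembly. Ifi27l1 of the table is listed in RefSeq as an older symbol of Ifi27, and was therefore placed with the interferon-induced genes.

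RNA was measured in bulk by CEL-Seq, which counts reads at the 3′ end of polyadenylated RNA, in 8 libraries, 2 for each of 4 groups. Pure WT libraries are A01 and A05, Mixed WT libraries A02 and A06, Pure Cancer libraries A03 and A07, and Mixed Cancer libraries A04 and A08, each named by its well. WT cells are of strain C57BL/6 and carry mTmG, a reporter whose membrane tdTomato marks them, and the methods add a Rosa26-CreERT2 allele. Cancer cells are of strain C57BL/6 (F6), express Dendra2 and carry Villin-CreERT2, in which the promoter of an epithelial gene of the gut drives a tamoxifen-activated Cre, with Apc fl/fl and Tr53 fl/R172H among their alleles. All groups were kept in basement membrane extract with EGF, noggin and R-spondin1, and the labels name no interferon among the additions and no age of the donor animals. For mixed cultures, 2 parts of WT were joined with 1 part of cancer clumps, and live single cells were sorted by their fluorescence on day 3. WT and cancer cells are different organoid lines, so the genotype and the line cannot be told apart. The sources do not say whether the 2 libraries of a group came from separate cultures, so p-values measure only the spread between these libraries, which may be technical. In bulk RNA, fewer cells expressing a gene and less of its RNA per cell cannot be told apart.

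Interferons are secreted proteins that signal through paired receptors and Janus kinases to STAT proteins. STAT proteins joined with IRF9 bind an interferon-stimulated response element (ISRE), dimers of STAT proteins bind a gamma-activated site (GAS), and both switch on genes whose products block viral entry, degrade viral RNA, tag proteins with ISG15 or sense foreign nucleic acid. Many cells, gut epithelium among them, hold a low, tonic level of these RNAs without infection, and IRF7 is itself induced and widens the response.

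Depth ranged from 73109 reads on genes in A02 to 4733121 in A04. Levels are given as CPM, the reads of a gene scaled to the library's reads on tested genes and its TMM factor, so that libraries of different depth can be compared. A count of 0 over both libraries of a group still allows up to 3 reads, and this floor came to 1.04 CPM for Pure WT, 5.80 CPM for Mixed WT, 5.72 CPM for Pure Cancer and 0.566 CPM for Mixed Cancer cells. Intervals and floors cover counting error only. Epcam and Krt8, which mark epithelium, were read in all 8 libraries, whereas Fabp1 and Cdx1, markers of intestinal identity, had no reads in either Pure Cancer library or in A08. Of the 9 immune markers measured, Fcer1g, Csf1r, Coro1a, Cd3d, Cd8a, Cd52 and Laptm5 had at most 4 reads in any library. The other 2, Cd14 and Cd68, had more reads and were higher in cancer than in WT cells over both cultures.

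The promoter sequences of the members that rose in Mixed WT cells are shown first, because interferon acts through promoter elements. They span 250 bases before to 50 bases after the start site of the gene in RefSeq (GRCm38.p6), on the strand of the gene, and were found for 46 of the 62 members. Searched on both strands were the ISRE core GAAANNGAAA, the GAS core TTCNNNGAA and the shorter IRF core AANNGAAA, which every ISRE core contains. Irf7 (chr7:141266375-141266674, minus strand), Oasl1 (chr5:114922990-114923289, plus strand) and Xaf1 (chr11:72301379-72301678, plus strand) are the members with a sequence among the 5 that rose. Ifitm1 (chr7:140967826-140968125, plus strand) is the member with the lowest p between cancer and WT cells, and Bst2 (50 bases, chr8:71537567-71537616, minus strand) a member that was higher in cancer cells and holds an ISRE core. Isg15 (50 bases, chr4:156200861-156200910, minus strand) shows an ISRE core for comparison. Capitals mark every IRF core in Oasl1 and Xaf1 and an ISRE core in Bst2 and Isg15. Rtp4 and Ifi27l1 are named only.
Irf7: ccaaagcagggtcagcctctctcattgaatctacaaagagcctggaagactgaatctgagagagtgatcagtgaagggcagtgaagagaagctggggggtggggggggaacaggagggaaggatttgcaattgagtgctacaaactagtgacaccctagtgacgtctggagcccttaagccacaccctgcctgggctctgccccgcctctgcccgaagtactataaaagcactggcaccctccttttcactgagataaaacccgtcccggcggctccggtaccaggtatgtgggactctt
Oasl1: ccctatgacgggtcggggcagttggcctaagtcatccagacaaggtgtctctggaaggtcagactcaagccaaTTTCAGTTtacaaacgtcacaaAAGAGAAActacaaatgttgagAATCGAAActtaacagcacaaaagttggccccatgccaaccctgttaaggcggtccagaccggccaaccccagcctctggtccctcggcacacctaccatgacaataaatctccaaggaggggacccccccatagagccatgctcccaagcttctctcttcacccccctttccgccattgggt
Xaf1: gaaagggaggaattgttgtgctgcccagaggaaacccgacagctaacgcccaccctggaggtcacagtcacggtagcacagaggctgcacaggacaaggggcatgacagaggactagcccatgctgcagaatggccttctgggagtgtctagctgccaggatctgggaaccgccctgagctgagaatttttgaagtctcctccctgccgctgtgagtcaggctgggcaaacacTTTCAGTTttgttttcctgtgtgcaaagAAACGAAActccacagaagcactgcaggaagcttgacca
Ifitm1: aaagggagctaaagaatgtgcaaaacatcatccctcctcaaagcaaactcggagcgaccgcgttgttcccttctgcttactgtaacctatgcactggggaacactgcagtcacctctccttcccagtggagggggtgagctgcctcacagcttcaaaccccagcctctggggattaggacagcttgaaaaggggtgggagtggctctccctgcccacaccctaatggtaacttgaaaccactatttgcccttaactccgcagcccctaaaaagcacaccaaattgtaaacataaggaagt
Bst2: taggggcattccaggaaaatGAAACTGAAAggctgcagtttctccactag
Isg15: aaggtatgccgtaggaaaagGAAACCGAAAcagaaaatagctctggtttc

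An ISRE core was held by 20 of the 46 members (43.5%), against 3.99% of 27025 genes with a promoter in the same table. A GAS core was held by 13 members (28.3%), against 9.55% of all genes, and an IRF core by 30 members (65.2%), against 26.7%. Among the members that rose in Mixed WT cells, the windows of Irf7, Oasl1 and Xaf1 held no ISRE core and no GAS core, and those of Oasl1 and Xaf1 held an IRF core. The windows of Isg15, Ifit1, Rsad2, Stat2, Igtp and Ifitm3, like that of Bst2, were among those with an ISRE core. Neither Ifitm1 nor Irf7, whose windows are printed above, held any of the 3. The Ifitm1 window follows the RefSeq start site and lies wholly inside the span of the gene in GENCODE (chr7:140967221-140969825). Bases before that span were not searched, so the window does not describe them. A match describes the letters of the window only and is not a binding site.

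**Figure D1:**
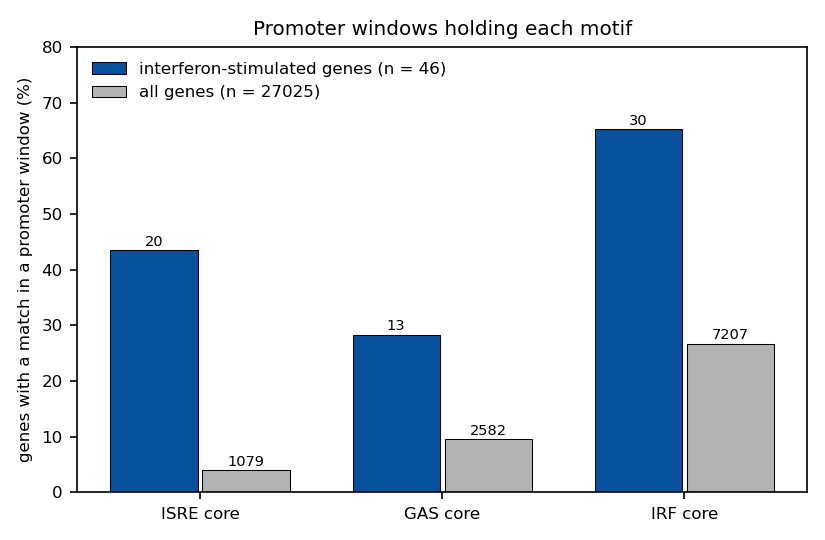
Share of genes with at least 1 match of each motif in a promoter window of 300 bases, in percent, for the 46 interferon-stimulated genes with a window (blue) and for all 27025 genes with a window (grey). Numbers above the bars count the genes with a match, and the blue bar is the taller for each of the 3 motifs.

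Whether WT cells changed these genes when cancer cells grew beside them was asked by comparing Mixed with Pure WT. Of the 27 tested members, 5 rose and 0 fell at an edgeR adjusted p under 0.05, against a background of 0.646% of all tested genes that rose and 0.095% that fell. The 5 were Ifi27l1, Rtp4, Xaf1, Oasl1 and Irf7. Over the 27 members the median log2 fold change was 1.09, against -0.10 over all tested genes, with 19 members above 0 and 8 below. The filter favours genes with reads in some group, so this median does not describe the 35 members that it removed.

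Ifi27l1 (chr12:103434211-103440239, GRCm38), which encodes a small mitochondrial protein of the ISG12 family, had 7.32 and 6.18 CPM in the Pure WT libraries A01 and A05. It had 105 and 215 CPM in the Mixed WT libraries A02 and A06. Both Mixed WT libraries stood clear of both Pure WT libraries and lay on either side of the cancer libraries, with 168 and 147 CPM for Pure Cancer and 170.0 and 187 CPM for Mixed Cancer. The rise in WT cells was 25.1-fold (95% interval 10.2 to 61.6, log2 4.65 with a standard error of 0.628, edgeR adjusted p = 0.000389). It was called in 16 of 17 alternatives, and without A06 the edgeR adjusted p was 0.0601.

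Rtp4 (chr16:23520291-23614222), an interferon-induced gene with antiviral activity, had 0 reads in both Pure WT libraries. Its reads in Mixed WT were 2 in A02 and 18 in A06, which make 26.2 and 40.8 CPM. Both Mixed WT libraries lay above both Pure WT libraries, and the Mixed WT level was at least 37.0-fold higher than the floor of Pure WT (edgeR adjusted p = 0.0284). Xaf1 (chr11:72301629-72313733), whose protein binds the apoptosis inhibitor XIAP, was likewise at 0 reads in A01 and A05, with 1 read in A02 and 17 in A06. Its Mixed WT level was at least 33.3-fold higher than that floor (edgeR adjusted p = 0.0294). Without A06 the edgeR adjusted p was 0.245 for Rtp4 and 0.356 for Xaf1, without A05 it was 0.163 and 0.272, and DESeq2 called neither.

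Oasl1 (chr5:114923240-114937915) encodes a protein like the oligoadenylate synthetases that restrains translation of Irf7 mRNA in mouse. It had 24.7 and 2.25 CPM in A01 and A05, and 170.4 and 134 CPM in A02 and A06. The groups did not overlap, although the Pure WT libraries differed from each other more than the Mixed WT libraries did in proportion. The rise was 11.6-fold (95% interval 3.64 to 36.9, log2 3.54 with a standard error of 0.808, edgeR adjusted p = 0.0367), with an edgeR adjusted p of 0.437 without A05 and 0.103 without A06. Irf7 (chr7:141262706-141266481), the factor that amplifies the interferon response, had 2 and 1 reads in A01 and A05, 0 reads in A02 and 27 reads in A06. Its change therefore rested on A06 alone, since 0 reads in A02 allow up to 39.3 CPM. The ratio of pooled levels was 49.9 (95% counting interval 15.4 to 257, edgeR adjusted p = 0.0399), and without A06 the fitted log2 change was -3.60. Leaving out A01 or A05 gave an edgeR adjusted p of 0.120 or 0.610.

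**Figure D2:**
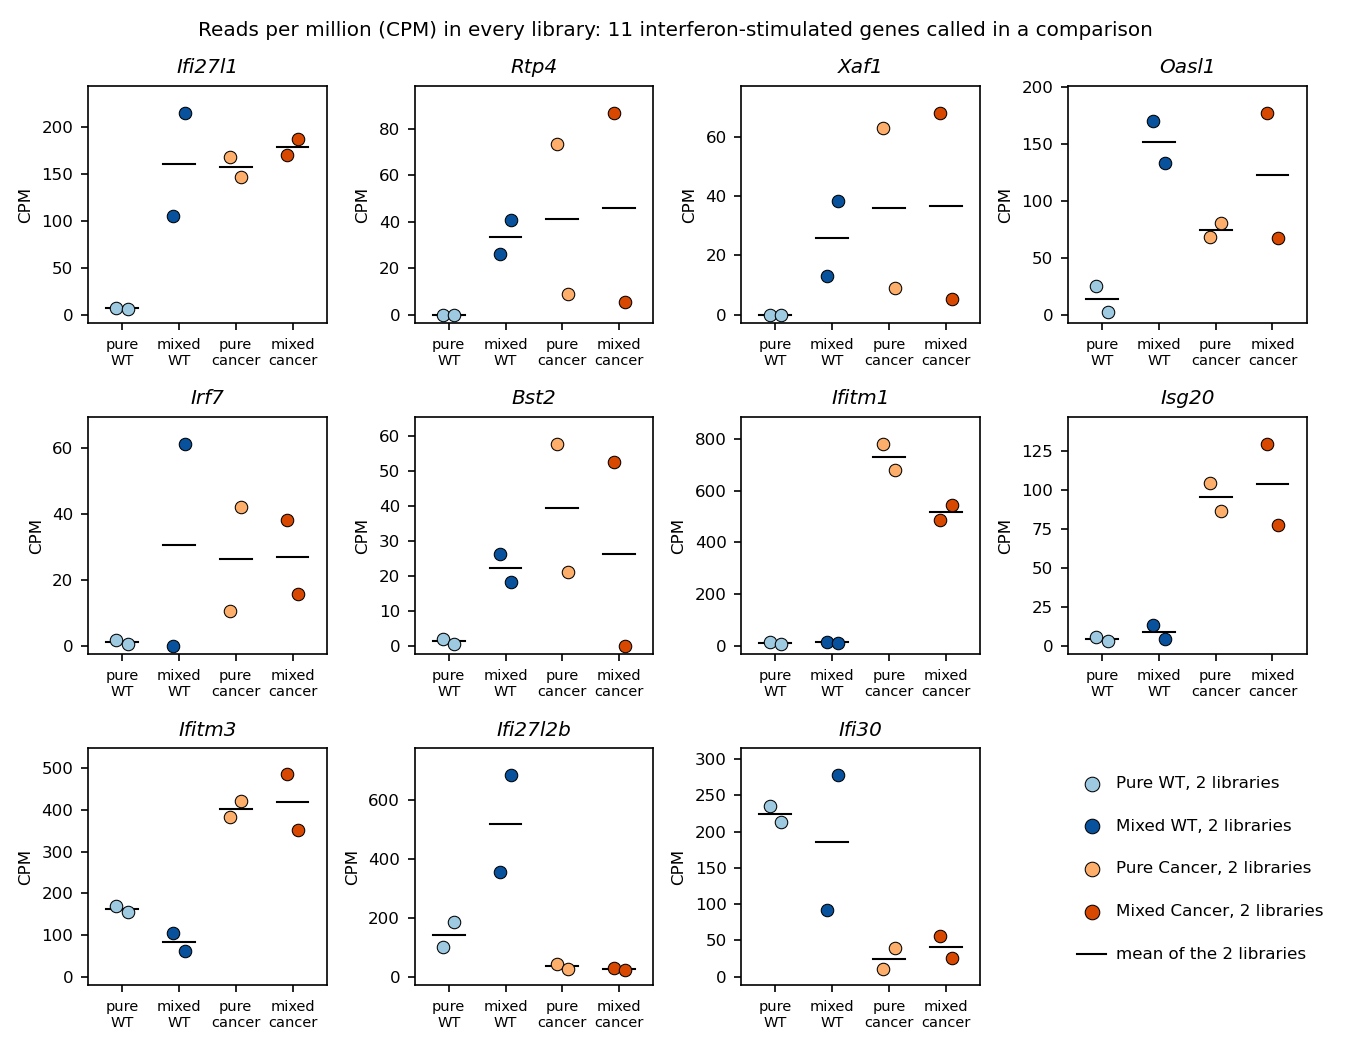
CPM in each of the 8 libraries (points) and their group means (lines) for the 11 members called in at least 1 comparison, by group, each panel with its own axis from 0. Ifi27l1, Rtp4, Xaf1 and Oasl1 are low in both Pure WT libraries and higher in both Mixed WT libraries, Ifitm1 and Isg20 are high in the 4 cancer libraries only, and Ifi27l2b and Ifi30 are lower in the 4 cancer libraries than in the 4 WT libraries.

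Other members had a higher mean in Mixed than Pure WT cells but were not called. Oasl2, the other Oasl gene of the mouse, had 0 reads in both Pure WT libraries against 2 in A02 and 13 in A06. That level was at least 27.7-fold higher than the floor of Pure WT (edgeR adjusted p = 0.0569). Oasl2 was called in 9 of the 10 alternatives that tested it, DESeq2 being the exception. Barcode counts, transcript estimates, a minimum count of 50 and the fits without A01, A04, A05 or A06 did not test it. Ifi27l2a, a neighbour of Ifi27l1 on chromosome 12, had 0 and 3 reads against 2 and 20, a ratio of 40.7 (95% counting interval 12.2 to 212, edgeR adjusted p = 0.116). Irf9, the DNA-binding partner of STAT proteins, had 5.49 and 8.99 CPM for Pure WT and 65.5 and 47.6 CPM for Mixed WT (log2 2.85 with a standard error of 0.852, edgeR adjusted p = 0.148). In these 3 genes both Mixed WT libraries lay above both Pure WT libraries, which the test across all genes did not call. How many of all tested genes showed such an order was not counted, here or below, so it does not by itself mark a change. The same order held for Ifi27l2b, with 98.8 and 185 CPM against 354 and 686 CPM (log2 1.90, edgeR adjusted p = 0.108), and for Ifi35, an interferon-induced leucine zipper protein, with 65.9 and 49.5 against 275 and 145 CPM (log2 1.80, edgeR adjusted p = 0.251). Bst2, or tetherin, which holds budding virions at the cell surface, had 2 and 1 reads against 2 and 8 reads, a ratio of 18.5 (95% counting interval 4.76 to 105, edgeR adjusted p = 0.234). On barcode counts, Ifi27l2a, Ifi27l2b and Irf9 were called as well, which made 8 members higher. The share of all tested genes that rose on barcode counts was not counted.

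The Ifitm genes of WT cells had no call in this comparison. Ifitm3, which blocks the fusion of viruses in endosomes, had 170.2 and 154 CPM for Pure WT and 105 and 61.2 CPM for Mixed WT (log2 -1.10 with a standard error of 0.518, edgeR adjusted p = 0.501). Ifitm2 had 221 and 347 CPM against 105 and 169.9 CPM (log2 -0.97, edgeR adjusted p = 0.537). Both were lower in each Mixed WT library than in each Pure WT library, by less than the test could call. Ifitm2 and Ifitm3 share 41.9% and 14.0% of their 50-base windows at the 3′ end with other transcripts, and the authors discarded reads with several equally good places, so their levels may be understated. Isg15, the ubiquitin-like modifier, had 1 read in each Pure WT library, 2 in A02 and 1 in A06, and no fold is given at such counts.

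Whether cancer cells changed the same genes upon mixing was asked by comparing Mixed with Pure Cancer. No member was called, as for all tested genes (0%), none of the 27 had an unadjusted p under 0.05 in edgeR, and DESeq2 also called 0. The median log2 fold change of the members was 0.20, against 0.03 over all tested genes, with 21 members above 0 and 6 below. Ifi27l1 differed by a log2 fold change of 0.18 (standard error 0.523) and Ifitm1 by -0.51 (standard error 0.445), both with an edgeR adjusted p of 1. Irf9 had 26.2 and 15 CPM for Pure Cancer and 59.9 and 31.1 CPM for Mixed Cancer, with a log2 fold change of 1.28 and a standard error of 0.845. The 95% interval of the log2 change ran from -0.90 to 1.26 for Ifi27l1 and from -1.53 to 2.49 for Rtp4, so that changes of this size in cancer cells were not detectable.

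**Figure D3:**
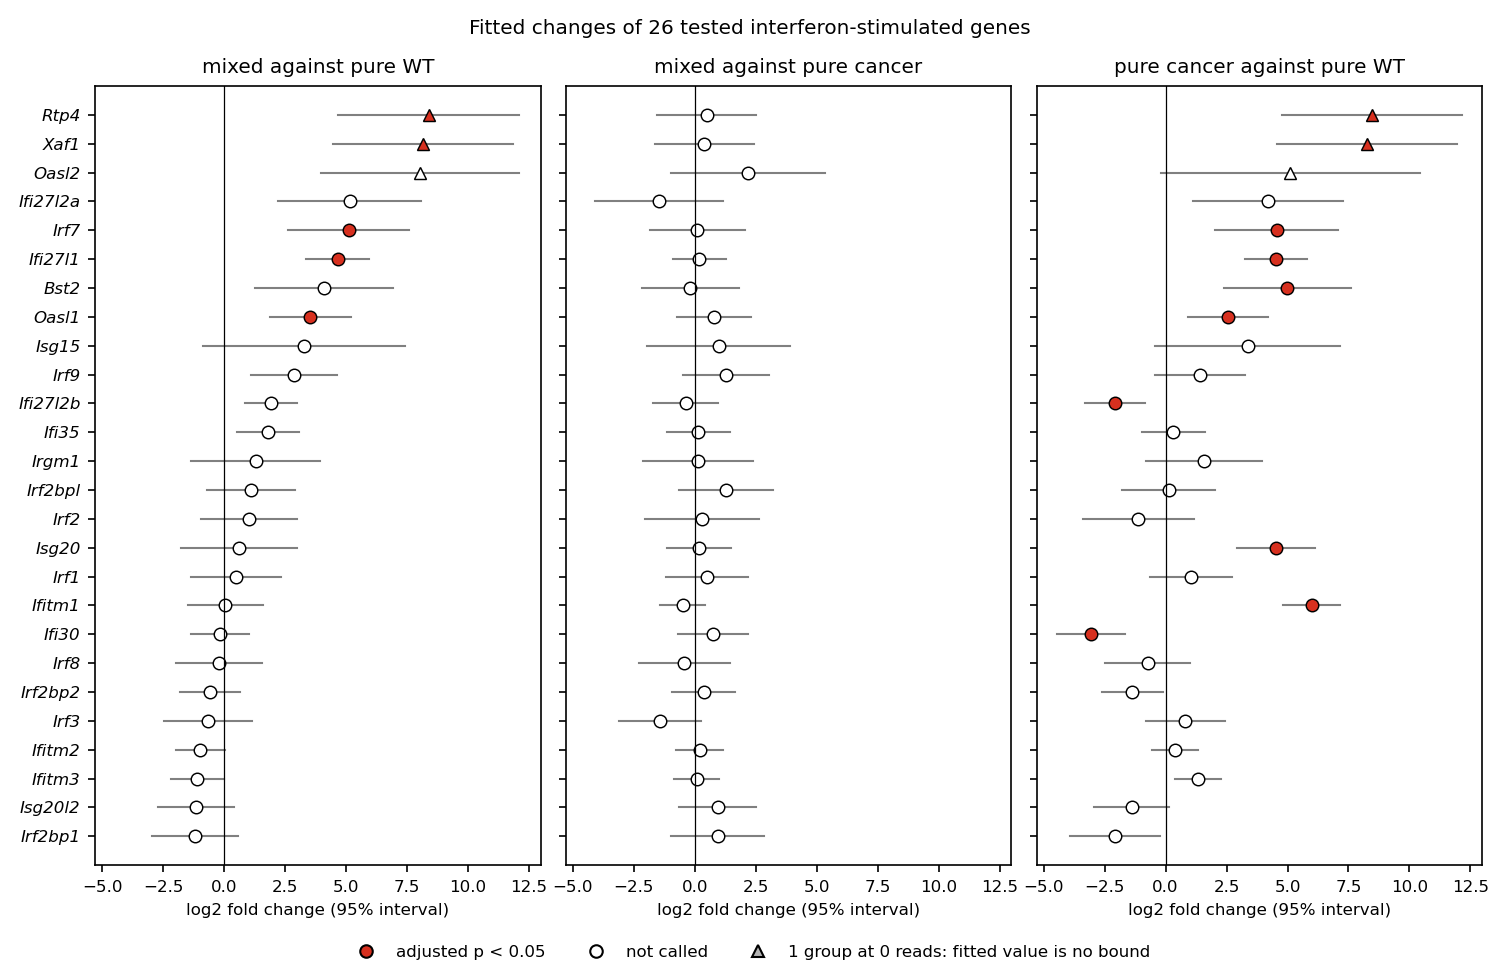
Fitted log2 fold changes (points) with 95% intervals (lines) of 26 of the 27 tested members for Mixed against Pure WT, Mixed against Pure Cancer and Pure Cancer against Pure WT, on a common horizontal axis, with members ordered by the WT change. Red points have an edgeR adjusted p under 0.05, which holds for 5, 0 and 10 members, and triangles mark a gene with 0 reads in 1 of the groups, whose fitted value is no bound.

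The responses of WT and cancer cells to mixing were also tested against each other, and 1 member was called, against 0.076% of all tested genes. For Ifi27l1 the WT change exceeded the cancer change by 4.47 on the log2 scale (standard error 0.806, edgeR adjusted p = 0.0253), while its cancer libraries held between 147 and 187 CPM in either culture. Rtp4 and Xaf1 had an edgeR adjusted p of 0.309 for this difference, Irf7 of 0.430 and Oasl1 of 0.560. The difference was thus called in 1 of the 5 members that rose in WT cells and left undecided in 4. For Ifi27l1 the edgeR adjusted p was 0.131 without A04, 0.129 without A05 and 0.178 without A06.

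The tonic level in cancer cells was read from Pure Cancer cells, which had met no WT cells. Against Pure WT, 8 members were higher and 2 lower, with 5.11% of all tested genes higher and 4.84% lower. The 8 included all 5 that rose in Mixed WT cells, and both comparisons share the Pure WT libraries. Ifi27l1 was 23.1-fold higher (95% interval 9.44 to 56.4, edgeR adjusted p = 2.42e-05), Oasl1 5.85-fold higher (95% interval 1.87 to 18.3, edgeR adjusted p = 0.0424), and Irf7 had a ratio of pooled levels of 29.2 (95% counting interval 8.36 to 156, edgeR adjusted p = 0.0164). Rtp4 had 14 reads in A03 and 3 in A07, at least 31.0-fold above the floor of Pure WT (edgeR adjusted p = 0.00264), and Xaf1 had 12 and 3 reads, at least 27.4-fold above it (edgeR adjusted p = 0.00316). Bst2 had 11 and 7 reads, a ratio of 32.8 (95% counting interval 9.59 to 174, edgeR adjusted p = 0.0111). In each of these 6 genes both Pure Cancer libraries lay above both Pure WT libraries. Without A05 the edgeR adjusted p was 0.156 for Bst2, 0.216 for Irf7 and 0.423 for Oasl1, without A07 it was 0.401 for Irf7 and 0.0903 for Oasl1, and without A01 it was 0.0558 for Irf7.

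Rtp4, Xaf1 and Bst2 varied widely among the cancer libraries. Rtp4 had 73.5 CPM in A03 against 8.98 CPM in A07, and 86.7 CPM in A04 against 5.19 CPM in A08, where it was a single read. Xaf1 had 63.0 and 8.98 CPM for Pure Cancer and 68.1 and 5.19 CPM for Mixed Cancer. Both genes were thus high in A03 and A04 and low in A07 and A08, and Bst2 followed the same order with 57.7 and 21.0 CPM for Pure Cancer and 52.6 CPM and 0 reads in Mixed Cancer. The high libraries are those of wells A03 and A04 and the low ones those of wells A07 and A08. Ifi27l1 did not share this split, staying between 147 and 187 CPM over the 4 cancer libraries.

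Ifitm1 and Isg20 were high in cancer cells and were not called in Mixed against Pure WT. Ifitm1 (chr7:140967221-140969825), a membrane protein that blocks viral entry at the cell surface, had 15.6 and 7.87 CPM for Pure WT and 13.1 and 11.3 CPM for Mixed WT. It had 782 and 682 CPM for Pure Cancer and 488 and 545 CPM for Mixed Cancer. Every cancer library lay far above every WT library, and the Pure Cancer level was 63.7-fold that of Pure WT (95% interval 28.4 to 143, log2 5.99 with a standard error of 0.565, edgeR adjusted p = 1.61e-07). The Mixed WT level differed from Pure WT by a log2 fold change of 0.04 (standard error 0.742). Isg20 (chr7:78913424-78920396), a 3′ to 5′ exonuclease that degrades RNA, had 5.49 and 2.81 CPM for Pure WT, 13.1 and 4.53 CPM for Mixed WT, 105 and 86.8 CPM for Pure Cancer and 129.9 and 77.8 CPM for Mixed Cancer. The Pure Cancer level was 23.3-fold higher (95% interval 7.68 to 70.9, edgeR adjusted p = 0.000283), again with no overlap between WT and cancer libraries. Its Mixed WT level rested on 1 read in A02 and 2 in A06, and the 95% interval of the log2 change in WT cells ran from -1.75 to 2.98, so a rise there was not detectable. Of the 3′ windows of Ifitm1, 11.8% are shared with other transcripts.

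Ifi30 and Ifi27l2b went the other way. Ifi30 (chr8:70762774-70766663), an interferon-induced thiol reductase of lysosomes, had 235 and 214 CPM for Pure WT, 91.8 and 279 CPM for Mixed WT, 10.5 and 38.9 CPM for Pure Cancer and 55.8 and 25.9 CPM for Mixed Cancer. Pure Cancer was 8.33-fold lower than Pure WT (log2 -3.06 with a standard error of 0.677, edgeR adjusted p = 0.00369). Ifi27l2b (chr12:103450898-103457223), of the same ISG12 family as Ifi27l1, had 42.0 and 26.9 CPM for Pure Cancer and was 4.25-fold lower there than in Pure WT (log2 -2.09 with a standard error of 0.597, edgeR adjusted p = 0.0250). Neighbouring members of this family therefore ran in opposite directions between cancer and WT cells. The call for Ifi27l2b between the pure cultures was not kept without A05 or without A07. Ifitm3 had 383 and 422 CPM for Pure Cancer and 487 and 353 CPM for Mixed Cancer, above the 4 WT libraries, with a log2 fold change of 1.31 in the pure cultures (edgeR adjusted p = 0.0730). Ifitm2 had 315 and 428 CPM for Pure Cancer and 346 and 519 CPM for Mixed Cancer, which overlapped with the 221 and 347 CPM of Pure WT.

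Cancer and WT cells sorted from mixed cultures were compared as well, and the sources do not say which libraries came from the same culture. Mixed Cancer exceeded Mixed WT in 3 members and fell below it in 2, with 2.01% of all tested genes higher and 4.41% lower. The 3 were Ifitm1 at 43.7-fold (95% interval 16.9 to 113, edgeR adjusted p = 5.14e-06), Isg20 at 17.1-fold (95% interval 4.36 to 67.0, edgeR adjusted p = 0.00762) and Ifitm3 at 5.58-fold (95% interval 2.62 to 11.9, edgeR adjusted p = 0.00326). Ifi27l2b was 20.5-fold lower in Mixed Cancer (edgeR adjusted p = 2.84e-05) and Ifi30 4.42-fold lower (edgeR adjusted p = 0.0361). Ifi27l1, Rtp4, Xaf1, Oasl1 and Irf7, higher in Pure Cancer than in Pure WT, had log2 fold changes of 0.06, 0.56, 0.50, -0.21 and -0.45 between the mixed cells, with standard errors from 0.528 to 0.995. None of these 5 was called, and their intervals do not show that the levels were alike. By edgeR, without A04 or without A06, the calls for Ifitm3 (edgeR adjusted p = 0.0596 and 0.0854), Isg20 (0.110 and 0.180) and Ifi30 (0.0849 and 0.503) were not kept, and that for Ifi30 was also lost without A05 (0.0607), without A08 (0.202) and in a fit of Mixed libraries alone, that for Ifitm3 also on barcode counts (0.250).

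Over both kinds of culture, 7 members were higher in cancer than in WT cells and 2 lower, with 6.8% of all tested genes higher and 7.37% lower. This contrast averages the pure and the mixed comparison and is not independent of them. The members higher were Ifitm1, Isg20, Ifi27l1, Ifitm3, Rtp4, Xaf1 and Bst2, with log2 fold changes from 1.90 for Ifitm3 (edgeR adjusted p = 0.000334) to 5.72 for Ifitm1 (edgeR adjusted p = 8.73e-10). The call for Bst2 turned to a log2 fold change of -0.91 without A04 (edgeR adjusted p = 0.873), and Rtp4 and Xaf1 were not called without that library (edgeR adjusted p = 0.301 and 0.318). Without A05 and without A06 the edgeR adjusted p of Bst2 was 0.108 and 0.0677. Ifi27l2b and Ifi30 fell by 3.22 and 2.60 on the log2 scale (edgeR adjusted p = 4.34e-06 and 0.000213).

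Levels in Mixed WT were also set beside those in Mixed Cancer as a share, pooled over both libraries of each group. Ifitm1 stood in Mixed WT at 2.37% of its Mixed Cancer level (upper limit 5.15%), Isg20 at 4.53% (upper limit 13.2%) and Ifitm3 at 14.0% (upper limit 19.5%). Nkd1 and Notum, targets of Wnt signalling that were higher in cancer cells in both cultures, stood at 0.942% (upper limit 5.25%) and 5.36% (upper limit 19.4%). They come from a list of 15 Wnt targets, 7 of them tested, that did not move as 1. In Pure Cancer against Pure WT, 3 of the 7 were above 0 and 4 below, with 2 called higher and 1 lower. In Mixed Cancer against Mixed WT, 7 were above 0, with 3 called. Bst2 stood at 38.1%, Rtp4 at 46.1%, Xaf1 at 52.8%, Oasl1 at 80.2%, Ifi27l1 at 117% and Irf7 at 140% of the Mixed Cancer level. Nearly all Mixed Cancer reads are from A04, and against A08 alone the shares were 745% for Rtp4, 670% for Xaf1, 206% for Oasl1, 107% for Ifi27l1 and 335% for Irf7, with Rtp4 and Xaf1 at 1 read each and Irf7 at 3 reads in A08. The genes were picked with their levels in these groups known, so that the shares are a description, and whether RNA of cancer cells reached the sorted WT cells was not tested.

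Summed over the 62 members, the level was 1388 and 1634 CPM for Pure WT, 1861 and 2714 CPM for Mixed WT, 2556 and 2574 CPM for Pure Cancer, and 3001 and 2329 CPM for Mixed Cancer. These sums include the 4 members that match by symbol only. Those held 311 and 386 CPM for Pure WT and 118 and 276 CPM for Mixed WT. In cancer cells they held 47.2 and 204 CPM for Pure Cancer and 187 and 265 CPM for Mixed Cancer. Both Pure WT libraries had the lowest sums on read counts, while on barcode counts the Mixed WT library A02 (2893.5 CPM) lay below the Pure WT library A05 (3251 CPM), and the members took from 0.138% of the reads in A01 to 0.324% in A04. By role, the antiviral effectors, which act on viral entry, RNA and budding, held 25 of the 62 members and 8 of the 27 tested. Of these 8, 2 rose in Mixed WT (Oasl1 and Rtp4), with 0.646% of all tested genes higher. In Pure Cancer against Pure WT 5 were higher, with 5.11% of all tested genes higher. In either comparison 0 fell, which is near the 0.095% and 4.84% of all tested genes that were lower. The summed level of the antiviral effectors was 448 and 533 CPM for Pure WT, 511 and 537 for Mixed WT, 1821 and 1736 for Pure Cancer, and 1919.5 and 1587 for Mixed Cancer. The sum in cancer cells lay above that in WT cells in every library and was led by the Ifitm genes, while both Mixed WT libraries lay near Pure WT. The other interferon-induced genes (7 members, 6 tested) showed a different order, with 407 and 456 CPM for Pure WT, 865 and 1411 for Mixed WT, 425 and 281 for Pure Cancer, and 445 and 275 for Mixed Cancer. Ifi27l2b, Ifi27l1, Ifi35 and Ifi30 carry most of that sum, which was highest in both Mixed WT libraries. No p is given for these sums, since the lists were chosen with results of these data known.

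**Figure D4:**
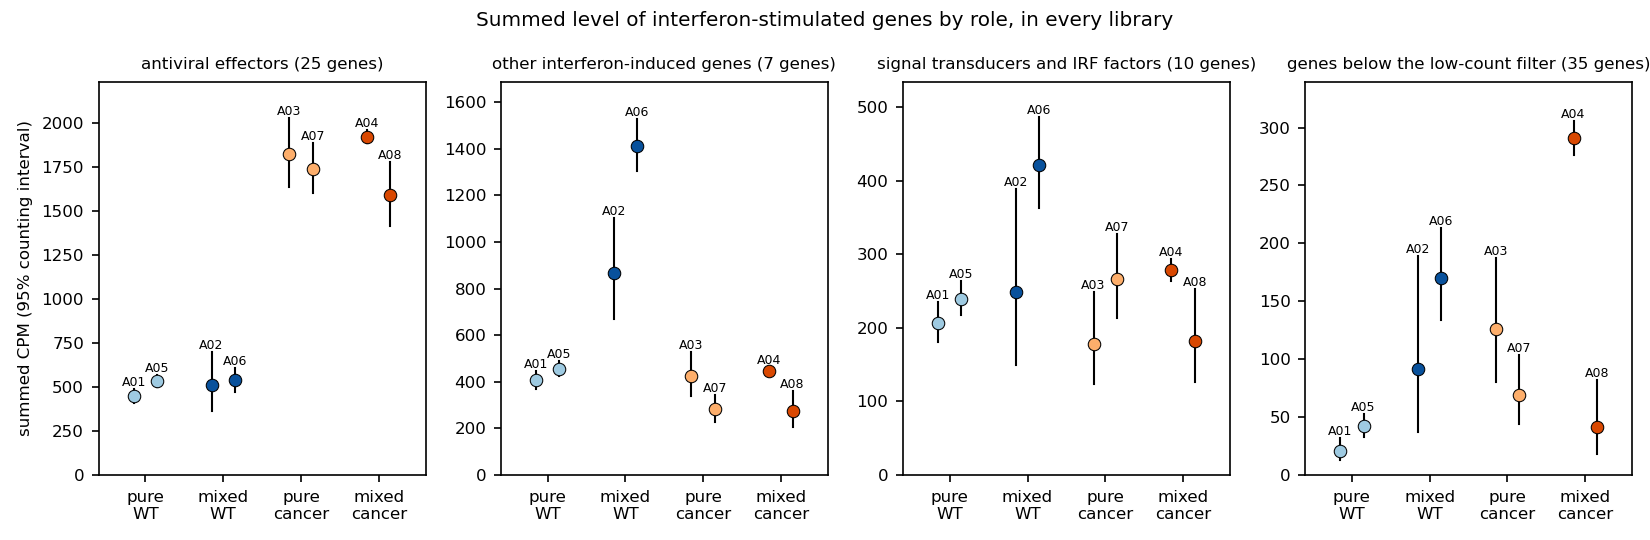
Summed CPM of the antiviral effectors, the other interferon-induced genes, the signal transducers and IRF factors, and the 35 members below the low-count filter, in each library (points labelled by well) with 95% Poisson counting intervals (lines). Antiviral effectors lie between 448 and 537 CPM in WT and between 1587 and 1919.5 CPM in cancer libraries, and the other interferon-induced genes reach 865 and 1411 CPM for Mixed WT against 275 to 456 CPM elsewhere.

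The signal transducers and IRF factors held 10 members, 7 of them tested, and Irf7 was the 1 called, higher in Mixed WT and in Pure Cancer. Of all tested genes, 0.646% and 5.11% were higher in these comparisons. The summed level of the 10 members was 207 and 239 CPM for Pure WT, 249 and 421 for Mixed WT, 178 and 266 for Pure Cancer, and 278 and 182 for Mixed Cancer. Both Mixed WT libraries lay above both Pure WT libraries, but A02 rested on 19 reads. Its 95% counting interval of 150 to 389 CPM covers both Pure WT sums. The cancer libraries overlapped with either group. Stat2, which carries the signal with IRF9 and lay below the filter, had 0 and 6 reads for Pure WT, 0 and 6 for Mixed WT, 0 and 4 for Pure Cancer, and 43 and 0 for Mixed Cancer. Its pooled ratio for Mixed against Pure WT was 5.55 (95% counting interval 1.48 to 20.8), from A06 alone among the Mixed WT libraries.

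Of the other IRF members, Irf1, Irf2, Irf3 and Irf8 had no call. Irf1, a factor induced by interferon gamma, had 14.6 and 14.1 CPM for Pure WT, 26.2 and 18.1 for Mixed WT, 36.7 and 23.9 for Pure Cancer, and 38.5 and 46.7 for Mixed Cancer (edgeR adjusted p = 0.918 for the WT change and 0.314 for cancer against WT over both cultures). Irf3, which is activated by phosphorylation after sensing of nucleic acid, had 39.4 and 28.1 CPM for Pure WT and 57.7 and 59.9 CPM for Pure Cancer (edgeR adjusted p = 0.629). Irf2, an antagonist of IRF1, ranged from 0 CPM in A08 to 65.5 CPM in A02, and Irf8, best known from blood cells, from 5.25 CPM in A03 to 49.4 CPM in A01, without a call in the 6 comparisons. The 4 members that match by symbol only had no call either. Irf2bp2 had the most reads of them, from 21.0 CPM in A03 to 209.6 CPM in A05, and Irf2bp1, Irf2bpl and Isg20l2 lay between 0 and 87.1 CPM in every library.

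The enzymes of ISG15 conjugation and the PARP and DTX ubiquitin enzymes (6 members) had 1 tested gene, Isg15, and it was not called. Isg15 had 126 reads in A04 and 0 to 3 reads in each of the other 7 libraries, which differ in depth, so that its 24.7 CPM in A04 lay below the 26.2 CPM of A02 and near the 15.7 CPM of A03. Usp18, which removes ISG15 and damps receptor signalling, had 0 reads in both Pure WT libraries against 4 and 2 for Pure Cancer, at least 10.9-fold above the floor of Pure WT. The interferon-inducible GTPases (6 members), which act on the vacuoles of pathogens, had Irgm1 tested and not called, with 5.49 and 6.74 CPM for Pure WT, 26.2 and 11.3 for Mixed WT, 0 and 32.9 for Pure Cancer, and 28.2 and 5.19 for Mixed Cancer. Igtp had 4 reads in A06, 1 in A07, 74 in A04 and 0 in the other 5 libraries. The RNA and DNA sensors (4 members) had none tested, and Ddx58, the sensor RIG-I, led them with 121 reads in A04 and 0 to 5 reads in each other library.

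The 35 members below the filter had most of their reads in the deepest library, A04, which held 4733121 reads on genes against 1905693 in A05, the next deepest. The filter asks for enough reads in at least as many libraries as a group holds. A gene read mainly in A04 therefore falls below it, so this concentration is in part set by the filter. The share over all genes below the filter was not computed. A04 held 86.3% of their reads, 33 of them had at least 1 read there, and 10 had reads in A04 only, among them Rsad2 with 68 reads, Ifit1 with 26, Ifi47 with 14 and Mx1 with 9. Rsad2 encodes viperin, which makes a chain terminator of viral RNA synthesis, and Ifit1 binds foreign RNA caps. Their reads in A04 alone made 13.3 and 5.09 CPM, below the 15.6 CPM that 3 reads make in the other Mixed Cancer library A08. The summed level of the 35 was 21.0 and 42.2 CPM for Pure WT, 91.8 and 169.9 for Mixed WT, 126 and 68.8 for Pure Cancer, and 291 and 41.5 for Mixed Cancer. Both Mixed WT libraries lay above both Pure WT libraries, while A08 lay at the level of Pure WT and far below A04. Of the 35, 20 had no read in either Pure WT library, and the share over all genes below the filter was not counted. Oas1f went the other way, with 5 and 20 reads for Pure WT and 0 in every other library. Oas1a and Oas1g, which share 56.1% and 42.4% of their 3′ windows, mainly with each other, cannot be separated reliably.

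**Figure D5:**
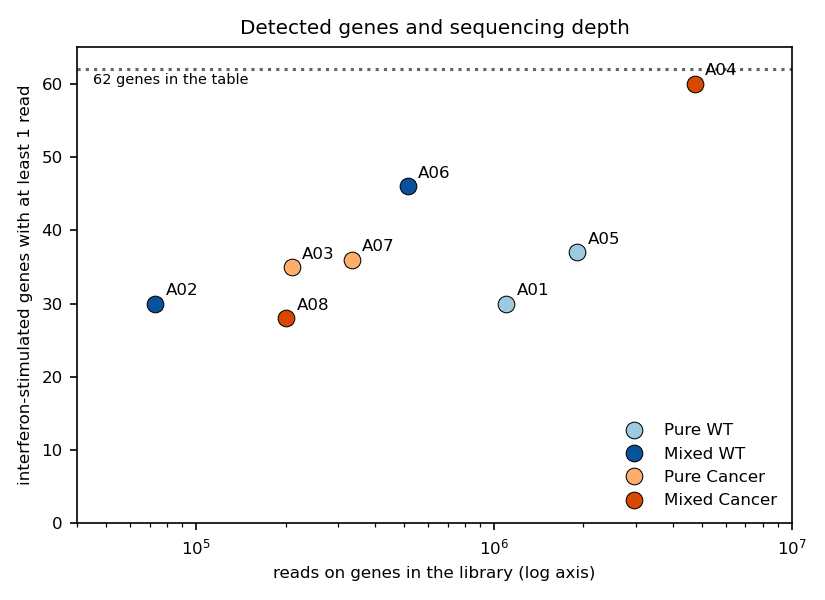
Number of the 62 interferon-stimulated genes with at least 1 read (vertical axis) against the reads on genes (log axis) in each library, coloured by group. The deepest library, A04, detects 60, and the Pure WT libraries A01 and A05, with 1103139 and 1905693 reads, detect 30 and 37. Of the Mixed WT libraries, A06 detects 46 with 515035 reads and A02 detects 30 with 73109 reads. The share of all genes detected in each library was not counted.

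Genes that make, receive or restrain the signal were read from separate lists. Since 0.646% of all tested genes rose and 0.095% fell in Mixed against Pure WT, a count of 0 in a list of a few genes is near the background there. Of 21 interferon genes listed, 1 was measured, Ifnl3, with 3 reads in A04 and 0 elsewhere. Of the 9 receptors and Janus kinases, 6 were tested and 0 were called in Mixed against Pure WT. In Mixed Cancer against Mixed WT, where 4.41% of all tested genes were lower, 1 of the 6 was lower. This was Ifngr2, a chain of the interferon gamma receptor, with 144 and 435 CPM for Mixed WT and 87.9 and 41.5 for Mixed Cancer (log2 -2.13 with a standard error of 0.558, edgeR adjusted p = 0.0182). Over both cultures Ifngr2 fell by 1.43 and its partner chain Ifngr1 by 2.05 on the log2 scale in cancer cells (edgeR adjusted p = 0.0116 and 0.0148). Ifnar1 and Ifnar2, the receptor of type I interferon, Il10rb, a chain of the lambda receptor, and Jak1 were not called in any comparison. For Mixed against Pure WT their log2 fold changes were 1.35, 0.10, 0.21 and 1.56, with standard errors from 0.746 to 1.17.

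Among 12 sensors and adaptors upstream of interferon, 4 were tested, and Tmem173, which encodes STING, was higher in cancer cells over both cultures (log2 3.32 with a standard error of 0.806, edgeR adjusted p = 0.00496), with 1.83 and 15.2 CPM for Pure WT, 0 and 4.53 for Mixed WT, 26.2 and 77.8 for Pure Cancer, and 35.2 and 104 for Mixed Cancer. Of 12 negative regulators, 9 were tested and 0 were called in any comparison. Of 37 measured interferon-induced genes outside the symbol rule, 10 were tested and 0 were called in Mixed against Pure WT. In Pure Cancer against Pure WT, Ly6e and Slfn2 were higher (log2 3.30 and 4.06, edgeR adjusted p = 0.000289 and 0.00493) and Lgals3bp lower (log2 -2.27, edgeR adjusted p = 0.0131). Plac8 had 631 and 642 CPM for Pure WT and 1350.2 and 2096 CPM for Mixed WT, was not called there, and was lower in Mixed Cancer than Mixed WT (log2 -2.57, edgeR adjusted p = 0.000318).

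Immune markers moved with the cancer cells in part. Of the 22 listed, 9 were measured, and their summed level was 47.6 and 109 CPM for Pure WT, 26.2 and 54.4 for Mixed WT, 121 and 473 for Pure Cancer, and 209 and 425 for Mixed Cancer. Nearly all of this was Cd14, a coreceptor of bacterial lipopolysaccharide, and Cd68, a lysosomal protein, which were higher in cancer than in WT cells over both cultures (log2 2.29 and 4.26, edgeR adjusted p = 0.000768 and 0.0124), while the other 7 had at most 4 reads in any library. Their part in the levels of the interferon-stimulated genes of cancer cells was not tested. In Mixed against Pure WT, 0 of the 2 tested immune markers were called. Fibroblast and endothelial markers, 3 of 11 measured, had 0 reads in both Mixed WT libraries, which allow up to 48.4 CPM in A02 and 8.36 CPM in A06. Their sum in Pure WT was 1.83 and 7.31 CPM, so these counts show no difference.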

How the data were processed

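Read counts per gene were deposited by the authors without normalization. Per the methods, the transcript reads were placed with BWA on RefSeq transcripts of mm10, ambiguous reads were dropped and featureCounts assigned the rest. The authors also deposited counts of molecule barcodes, which level off near 256 a gene, and estimated counts of transcripts derived from them, both used as alternatives here, the latter rounded. A deposited DESeq2 1.22.2 table holds the authors' fold changes and p-values for WT cells and was not used.

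After 2 entries that are not mouse genes were left out, counts were fitted with edgeR 4.0.16 in R 4.3.3 (filterByExpr with a minimum count of 10, TMM factors, quasi-likelihood fit of 4 group means over 8 libraries). Genes were called at a Benjamini-Hochberg adjusted p under 0.05 over all tested genes. Standard errors were derived from the log2 fold change and the F statistic of its test. Against 0 reads, a fold is a lower bound from 3 reads over the group without the counting error of the group that has reads, and at 1 to 3 reads a ratio with an exact 95% counting interval is given. Shared windows of 50 bases within the last 500 bases and gene positions came from GENCODE vM21 (GRCm38).

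The members, lists and tests were chosen with earlier results of these data known, and Ifi27l1 was placed among the interferon-induced genes after the tables were read. Named are members called in any of 6 comparisons, tested members with a mean of at least 10 reads, the 2 members with the most reads in each role, and called pathway genes and tested receptors and Janus kinases. Alternatives were barcode counts, transcript estimates, median-of-ratios factors, no filter, a minimum count of 50, only the libraries compared, DESeq2 1.42.0, each library left out and, added after seeing the data, a newer dispersion estimate and a replicate block by well quartet. Groups follow the labels, which name no pairs, and the fit reported has no block. Some genes and an allele are not reported here, also where the naming rule covers them.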

Additional observations from a re-analysis of the deposited data

Results flagged for a closer look

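The change of Ifi27l1 upon mixing differed between the cell types by the test of the difference itself. It was larger in WT than in cancer cells by 4.47 on the log2 scale (standard error 0.806, 95% interval of the ratio 6.97 to 70.2, edgeR adjusted p = 0.0253). The level went from 7.32 and 6.18 CPM to 105 and 215 CPM in WT cells and from 168 and 147 CPM to 170.0 and 187 CPM in cancer cells, so that both Mixed WT libraries lay above both Pure WT libraries while the cancer libraries stayed within 147 to 187 CPM.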

How the results depend on the processing

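Of the alternatives to the 5 members called between Mixed and Pure WT, barcode counts, transcript estimates and a fit restricted to the 4 libraries involved each gave 8, a minimum count of 50 gave 2 and DESeq2 gave 3, and leaving out single libraries gave from 0 (without A06) to 10 (without A07). The 10 calls between Pure Cancer and Pure WT became 4 at a minimum count of 50 and 6 in a fit restricted to those 4 libraries, and 6 to 12 with single libraries left out. The 5 calls between Mixed Cancer and Mixed WT became 2 to 6 with single libraries left out, with 2 without A04 or without A06. The single call for the difference of the mixing changes became 3 on barcode counts and 0 (without A04, A05 or A06) to 4 with libraries left out. Mixed against Pure Cancer gave 0 in every alternative run. The share of all tested genes called was not counted under any alternative, the block described below included. These counts of members therefore have no background beside them. The sign of Bst2 over both cultures turned without A04 (-0.91, otherwise up to 3.18 with single libraries left out). That of Irf7 turned without A06, to -3.60 between Mixed and Pure WT (otherwise up to 5.86) and to -3.68 for the difference of the mixing changes (otherwise up to 5.76). Of the other values for single members, 745 kept their direction and side of the threshold, 80 passed it newly and 40 no longer passed. On barcode counts the summed CPM of the members were 2869 in A01, 3251 in A05, 2893.5 in A02, 4411 in A06, 3946 in A03, 4328 in A07, 5843 in A04 and 3881 in A08, and it was 2319 in A03 with plain CPM. Without Ifitm3 the read sums in CPM were 2173 in A03, 2152 in A07 and 2514 in A04. Where a value moved, the cause was not tested. The depth of A02 limits Mixed WT, since 3 reads there make 39.3 CPM, and the 35 members below the filter were not tested. The labels give the groups no shared replicate numbers and name no pairs. A replicate block by well quartet (A01 to A04 against A05 to A08, each with 1 library of every group), added after seeing the data, gave 9 members between Mixed and Pure WT, 3 for the difference of the mixing changes, 12 between Pure Cancer and Pure WT, 6 between Mixed Cancer and Mixed WT, 13 over both cultures and 0 between Mixed and Pure Cancer.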
